A study of Mus musculus with 8 samples.

Results

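Chemokine receptors are G protein-coupled receptors on the surface of blood cells, and the 9 described here are Ccr1, Ccr2, Ccr7, Ccr9, Cx3cr1, Cxcr2, Cxcr3, Cxcr4 and Cxcr5. They were followed from a cultured mouse cell line to the tumors that its cells formed in the spleen. Members were all probe sets whose gene symbol in the platform annotation is or includes one of these names, and each probe set is described separately. This gave 15 of the 22690 probe sets on the array, each naming 1 gene. Of these, 8 probe sets of 5 genes had enough signal to be tested, and 7 had too little and are given by their signals.

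The cell line was FL5.12, an interleukin-3-dependent mouse pro-B line, and all 8 samples derive from a line carrying 2 stable transgenes, Bfl-1DC and p53DD. The labels do not spell these out, say whether the line was 1 clone, or give the strain and age of the mice. The parental group is the cultured line (2 arrays), grown, per the labels, with WEHI-3B supernatant as its source of IL-3. The tumor group is spleen-derived tumor material from 3 nude mice injected through a vein (2 arrays for each of tumors 1, 2 and 3), and the study asked which genes changed as tumors formed. Nude mice lack a thymus but keep B, natural killer and myeloid cells of their own. The growth text is the same for both groups, and whether the tumor cells passed through culture is not settled. A spleen tumor can hold host cells, and on bulk RNA fewer cells of a type and less RNA per cell cannot be told apart.

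Chemokine receptors bind small secreted proteins, the chemokines, and signal through G proteins of the inhibitory class, so that a cell crawls toward higher ligand. Ccr2 directs monocytes out of the bone marrow, and Ccr1 guides monocytes, granulocytes and other myeloid cells. Cxcr4 holds blood-forming cells and B cell precursors in the marrow, where stromal cells make its ligand Cxcl12. Ccr7 and Cxcr5 place lymphocytes within the T and B cell zones of spleen and lymph node. Ccr9 draws cells to thymus and gut, Cxcr2 is the main neutrophil receptor, Cxcr3 marks activated T and natural killer cells, and Cx3cr1 marks monocytes and their relatives.

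The promoters of Ccr2, Ccr1 and Cxcr4 are shown because these genes carry the differences described below the sequences. Each is the 250 bases before the RefSeq start of the gene on assembly GRCm38.p6, written along the gene's strand, and 7 of the 9 genes had such a window. The Ccr2 window lies at chr9:124101933-124102182 on the plus strand. The Ccr1 window lies at chr9:123968693-123968942 on the minus strand. The Cxcr4 window lies at chr1:128592300-128592549 on the minus strand. Capitals mark exact matches, on either strand, to 5 motifs.
Ccr2: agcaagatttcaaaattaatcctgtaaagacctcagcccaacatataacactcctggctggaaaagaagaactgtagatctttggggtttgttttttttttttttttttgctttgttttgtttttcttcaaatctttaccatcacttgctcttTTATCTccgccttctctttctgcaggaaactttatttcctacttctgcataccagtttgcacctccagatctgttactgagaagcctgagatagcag
Ccr1: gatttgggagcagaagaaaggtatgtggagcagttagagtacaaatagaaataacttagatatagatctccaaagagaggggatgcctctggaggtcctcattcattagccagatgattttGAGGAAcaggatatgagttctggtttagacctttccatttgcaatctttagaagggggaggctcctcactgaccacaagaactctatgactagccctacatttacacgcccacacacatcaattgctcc
Cxcr4: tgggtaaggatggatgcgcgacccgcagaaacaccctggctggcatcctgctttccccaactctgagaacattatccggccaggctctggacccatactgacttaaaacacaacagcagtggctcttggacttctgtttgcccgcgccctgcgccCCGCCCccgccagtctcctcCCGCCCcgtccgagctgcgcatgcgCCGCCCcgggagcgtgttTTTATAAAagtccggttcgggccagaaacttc

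The motif GAGGAA is the core bound by PU.1 and other ETS factors. The motif AGATAA is bound by GATA factors, and TTGCNNAA by C/EBP factors. The motif GGGCGG is known as the GC box, and the motif TATAAA as the TATA box. The Ccr2 window held a single match, to AGATAA on the reverse strand, 97 bases before the start. The Ccr1 window also held a single match, to GAGGAA, 129 bases before the start. The Cxcr4 window held 3 GC boxes on the reverse strand, 95, 75 and 50 bases before the start, and TATAAA 30 bases before it, overlapped by a reverse-strand match at 32 bases. Among all 32817 windows of this length, AGATAA was present in 9.99%, GAGGAA in 23.3%, TTGCNNAA in 9.57%, GGGCGG in 32.7% and TATAAA in 12.4%. The 3 windows thus share no motif of those searched, and a match describes the letters only.

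The values are MAS5 signals on a linear scale, and tests used log2(signal + 16), on which the change of a gene of low signal is understated. A probe set was tested where its signal passed the 40th percentile of its array, which lay between 15.6 and 20.6, on at least 2 of the 8 arrays. This left 14897 probe sets. Duplicate arrays correlated at 0.953 to 0.973 across probe sets, and their number limits the precision. The labels do not say whether duplicate arrays came from separate cultures or extractions, so p-values that rest on them measure a spread that may be technical. The second array of a source also shared deviations with the second arrays of the other sources, and values with the array number as a block are given where they change a call. Of pro-B cell markers, Dntt, Ebf1, Rag1, Rag2 and Vpreb1 never passed the 40th percentile, whereas Cd79b, a part of the B cell receptor, read 109 and 77.6 in the parental arrays and 209 to 298 in tumor arrays.

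Tumors carried more signal than parental cells at all 3 probe sets of Ccr2. Tumors against parental cells, with each tumor's mean as 1 value (3 tumors, 2 parental arrays), gave 3 of the 8 tested members called higher by limma at an adjusted p of 0.05, all of them probe sets of Ccr2. Over all probe sets tested, 74 were called higher (0.497%) and 30 lower (0.201%). No member was called lower by limma, and none had a change below 0. At an unadjusted p under 0.05, 4 members were higher and 0 lower. All Ccr1 and Ccr2 probe sets passed the signal filter through tumor arrays only, so the members' count and their median change of 1.29, beside 0.0079 over all probe sets tested, are descriptions.

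**Figure D1:**
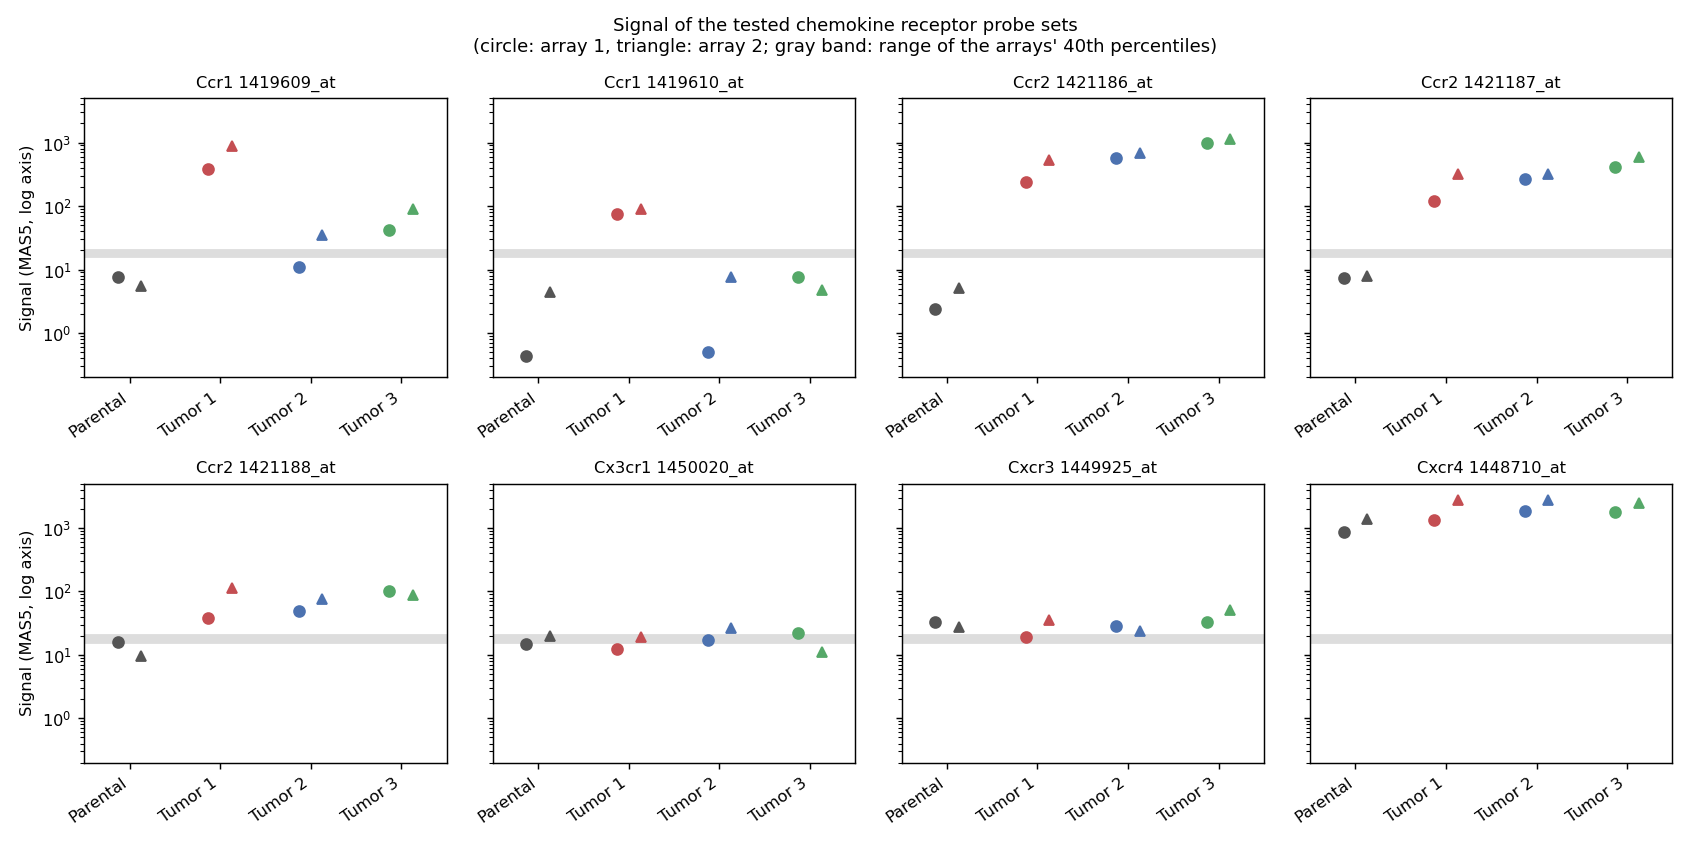
Signal of each tested chemokine receptor probe set on a log axis, with 1 symbol per array for parental cells and tumors 1 to 3 and a gray band from 15.6 to 20.6 for the 40th percentiles of the arrays. Ccr2 lay above the band in all 6 tumor arrays and below it in parental cells, except 1 parental array at the lower edge of the band for 1421188_at (15.8), Ccr1 stood out in tumor 1, and Cxcr4 was far above the band everywhere.

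Ccr2, the receptor for Ccl2, Ccl7 and Ccl12, lies on chromosome 9 and has 3 probe sets on this array. The first, 1421186_at, read 2.38 and 5.20 in the parental arrays, 235 and 530.2 in those of tumor 1, 570.03 and 684 in those of tumor 2, and 999.8 and 1158 in those of tumor 3. Every tumor array was higher than both parental arrays, and the tumors did not overlap each other. The second, 1421187_at, read 7.25 and 7.78 in the parental arrays, 121 and 321 in those of tumor 1, 265 and 325 in those of tumor 2, and 414 and 584 in those of tumor 3. Here too the parental arrays lay apart from all tumor arrays, but tumors 1 and 2 overlapped. The third, 1421188_at, was dimmer, at 15.8 and 9.57 in the parental arrays, 37.7 and 111 in those of tumor 1, 48.3 and 76.8 in those of tumor 2, and 100.5 and 88.3 in those of tumor 3. It again separated parental from tumor arrays, and the arrays of tumor 1 spanned those of both other tumors.

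By limma, Ccr2 1421186_at rose by 5.01 ± 0.42 (SE, log2, 3 tumors against 2 parental arrays; 95% interval 4.02 to 6.01; adjusted p = 0.00697). Ccr2 1421187_at rose by 3.78 ± 0.34 (interval 2.96 to 4.60; limma's adjusted p = 0.00918). Ccr2 1421188_at rose by 1.64 ± 0.21 (interval 1.13 to 2.15; limma's adjusted p = 0.0348). No parental array passed its 40th percentile at any of the 3, so the rise is a lower bound when taken against that percentile. The geometric mean of the tumors was then at least 39.2-fold higher for 1421186_at, at least 19.3-fold for 1421187_at and at least 4.56-fold for 1421188_at. The probe sets thus all showed a rise and differed in its size, and signals of different probe sets are not comparable as levels.

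In the comparison over tumors, the Ccr2 calls needed both parental arrays. Without parental array 1 the adjusted p of the 3 probe sets by limma was 0.118, 0.127 and 0.142, and without parental array 2 it was 0.126, 0.126 and 0.160, the lone array being assumed to vary like the tumors. Their changes barely moved: 1421186_at was 4.91 and 5.12 higher in those fits. Ccr2 1421188_at also missed the threshold without tumor 1 (adjusted p = 0.0756) or tumor 3 (0.0654), and no Ccr2 probe set passed with no signal filter (0.0554, 0.0576 and 0.0868). With a pseudocount of 64, 1421187_at (0.0520) and 1421188_at (0.0757) were lost.

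Ccr2 was up in each mouse. In the fit of all 8 arrays, where the error is the spread between duplicate arrays, limma called 4 of 8 members higher in tumor 1 and 2 of 8 each in tumors 2 and 3. Over all probe sets tested, 1.73%, 0.973% and 1.66% were called higher in tumors 1, 2 and 3. The called members were probe sets of Ccr1 and Ccr2, which passed the signal filter through tumor arrays only, so these counts are descriptions. No member was called lower in a single tumor, where 1.19%, 0.302% and 0.47% of all probe sets were. Ccr2 1421186_at was higher by 4.23, 5.02 and 5.79 (SE 0.34) in tumors 1, 2 and 3, with limma's adjusted p of 0.00109, 0.000475 and 0.000193. Ccr2 1421187_at was higher by 3.19, 3.72 and 4.43 (SE 0.39; limma's adjusted p 0.00723, 0.00436 and 0.00113). Ccr2 1421188_at gave 1.54, 1.44 and 1.95 (SE 0.39) and missed the threshold in each tumor (limma's adjusted p 0.0874, 0.169 and 0.0508). With the array number as a block, it passed in tumor 1 (0.0340) and tumor 3 (0.0212). Without either array of tumor 1 it passed in tumors 2 (0.0424) and 3 (0.00836), and without the first of them in tumor 1 too (0.0169). Ccr2 1421187_at missed the threshold in tumor 1 without parental array 1 (0.05003) or 2 (0.0566).

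Tumor 3 stood highest and tumor 1 lowest at the 2 brighter Ccr2 probe sets. The difference between tumors 3 and 1 was 1.56 ± 0.34 for 1421186_at on the log2 scale, and limma's adjusted p was 0.0976. Neighbours in this order, tumors 2 and 1 (0.79, adjusted p = 0.472) and tumors 3 and 2 (0.77, adjusted p = 0.773), did not pass limma's test either. The F test over the 3 tumors gave an adjusted p of 0.171 for that probe set in limma, 0.0310 with the array number as a block and 0.0267 without the second array of tumor 1. The other Ccr2 probe sets gave 0.387 and 0.848 in the F test. The first array of tumor 1 was the lowest tumor array at all 3 Ccr2 probe sets.

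**Figure D2:**
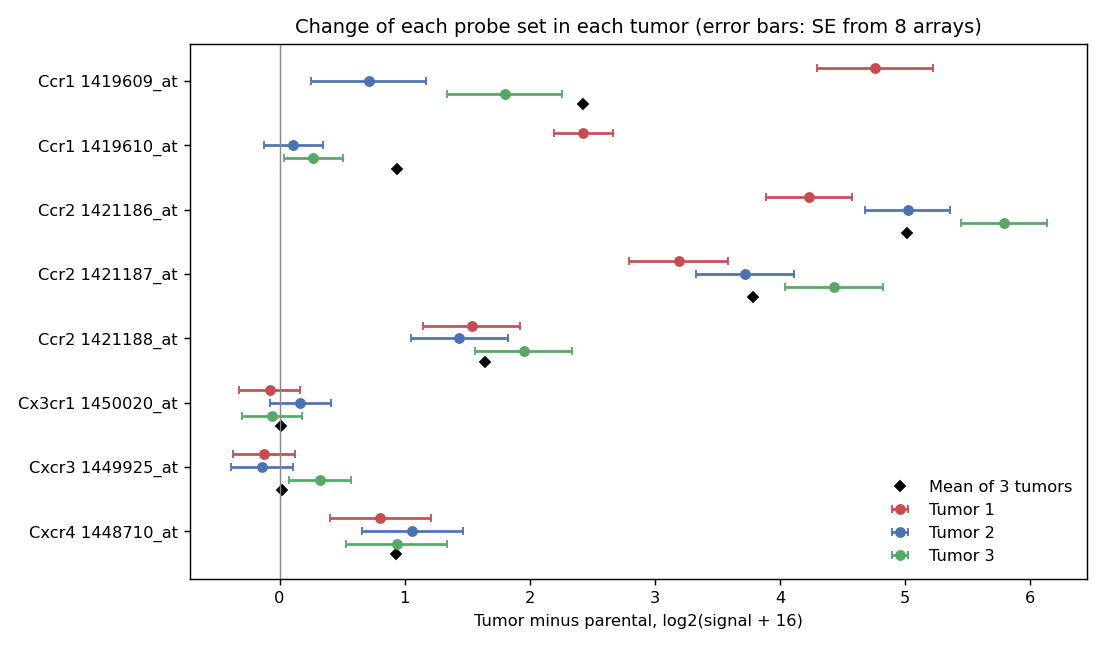
Change of each tested probe set in tumors 1, 2 and 3 against parental cells, as the difference of log2(signal + 16) with the SE of the fit of 8 arrays, and the mean over the 3 tumors as a diamond. Ccr2 lay to the right of 0 in all tumors, Ccr1 was highest in tumor 1, and Cxcr3 and Cx3cr1 lay around 0.

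The Ccr2 probe sets followed each other across the arrays. The log2 values of 1421186_at and 1421187_at correlated at 0.996 over 8 arrays and at 0.975 over the 6 tumor arrays. The dimmer 1421188_at correlated with them at 0.930 and 0.948 over 8 arrays, and at 0.712 and 0.790 over tumor arrays only. All values share the same arrays and their 2-group split, so these are descriptions.

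Among 13657 probe sets naming 1 other gene, the patterns most like Ccr2 1421186_at over the 8 arrays were both Ndrg1 probe sets (r = 0.995 and 0.994) and Hc, which encodes complement component C5 (r = 0.993). Hc read 5.87 and 7.15 in parental arrays and 66.7 to 252 in tumor arrays, rising by 2.95 (limma's adjusted p = 0.0142). Those most like 1421187_at were Hc (0.996), the transporter gene Slc44a4 (0.992) and Prg2 (0.991). Prg2, the eosinophil major basic protein, read 12.2 and 10.4 in parental arrays and 346 to 3977 in tumor arrays. The patterns most like 1421188_at were Pde6h (0.979), Rab3d (0.975) and Cyb5r4 (0.972), none of which passed limma's test (adjusted p 0.0598, 0.122 and 0.116).

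Some granulocyte markers were also higher in tumors. The summed signal of 12 neutrophil marker genes was 814 and 280 in the parental arrays and 3813 to 9745 in tumor arrays, with 2 of 11 probe sets tested called higher and a median change of 1.58. The other 9 were not called, Camp never passed the 40th percentile, and the sum was higher on the second array than on the first in each tumor. Mpo, the myeloperoxidase of neutrophil granules, read 12.1 and 16.4 against 1560 to 3401. The eosinophil sum was 42.8 and 38.1 against 3701 to 8053, with 2 of 4 tested probe sets called higher and a median of 3.70. Epx, the eosinophil peroxidase, read 9.21 and 9.34 against 2614 to 4607, whereas the eosinophil receptors Ccr3 and Il5ra never passed the 40th percentile. Their part in the Ccr2 result was not tested.

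Monocyte and macrophage markers, which in blood go with Ccr2, differed both between groups and between array numbers. Their sum was 253 and 1193 in the parental arrays, 636 and 2854 in those of tumor 1, 393 and 1575 in those of tumor 2, and 540 and 1804 in those of tumor 3. It was higher on the second array of every source. Of 9 tested probe sets, 2 were called higher, Cd14 (2.81) and Lyz2 (2.77), with a list median of 0.66. By limma, 4 were higher and 0 lower at an unadjusted p under 0.05. The 3 with a change below 0 were all of Csf1r (-0.65, -0.81 and -0.25), and limma did not call them. Csf1r 1419872_at read 11.5 and 555 in the parental arrays and 19.1 to 243 in tumor arrays. C1qa, C1qc, Cd163, Marco and Ms4a7 never passed the 40th percentile. Within the first arrays the macrophage sum was 253 in parental cells and 393 to 636 in tumors, and Ccr2 1421186_at was 4.85 higher in tumors. Within the second arrays the sum was 1193 and 1575 to 2854, and Ccr2 1421186_at was 5.17 higher. Limma's adjusted p within one array number was 0.263 and 0.0669, with a single parental array in each. The part of macrophages in the Ccr2 result was not tested.

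Cxcr4, on chromosome 1, lay far above the 40th percentile on all 8 arrays. Its probe set 1448710_at read 866 and 1366 in the parental arrays, 1309.8 and 2797 in those of tumor 1, 1868 and 2795 in those of tumor 2, and 1799 and 2446 in those of tumor 3. The means of the 3 tumors lay above both parental arrays, but the first array of tumor 1 lay below the second parental array. The difference was 0.93 ± 0.23 (log2; 95% interval 0.40 to 1.47), and limma did not call it (adjusted p = 0.138). The second array was brighter than the first in all 4 sources. With the array number as a block over all 8 arrays, limma called the rise (adjusted p = 0.0109, against 0.189 over the same arrays without it). The error in that fit is the spread of duplicate arrays, not that between mice. It called 1102 of the 14897 probe sets higher and 850 lower, against 74 and 30 in the main comparison.

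Within the first arrays, the ratio of Cxcr4 signal in a tumor to that in parental cells was 1.51 to 2.16. Within the second arrays it was 1.79 to 2.05. The tumors were close to each other, with changes of 0.81, 1.06 and 0.94 (SE 0.40) and limma's adjusted p of 0.338, 0.328 and 0.335. With the array number as a block these became 0.0324, 0.0238 and 0.0259, again with the spread of duplicate arrays as the error. Limma's F test did not call a difference among the tumors (adjusted p = 0.976). Of the 8 tested members, 5 had all 3 tumors above both parental arrays, beside 18.4% of all probe sets tested. None had all 3 tumors below (15.8% of all). In 4 members all 6 tumor arrays lay above both parental arrays (9.35% of all), and in 4 the second array was above the first in all 3 tumors (24.9% of all). Apart from Cxcr4, the members with tumors above parental arrays were probe sets of Ccr1 and Ccr2. Those passed the signal filter through tumor arrays only, so the counts of members above parental arrays are descriptions.

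Ccr1, a receptor for Ccl3, Ccl5, Ccl6 and Ccl9 on myeloid cells, was high in the tumor of 1 mouse. Probe set 1419609_at read 7.52 and 5.45 in the parental arrays, 389 and 897 in those of tumor 1, 10.8 and 34.4 in those of tumor 2, and 42.5 and 88.6 in those of tumor 3. Every tumor array was above both parental arrays, and tumor 1 lay far above the other tumors. Probe set 1419610_at read 0.434 and 4.40 in the parental arrays, 75.03 and 90.5 in those of tumor 1, 0.508 and 7.67 in those of tumor 2, and 7.54 and 4.71 in those of tumor 3. Only the tumor 1 arrays passed their 40th percentile at this probe set. Tumor 2 overlapped the parental arrays, and tumor 3 lay above them but below the percentile.

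Limma called both Ccr1 probe sets higher in tumor 1, by 4.76 ± 0.46 and 2.43 ± 0.24 (log2, adjusted p = 0.00262 for each; with a pseudocount of 1, the second gave 0.0545). Taken against the parental arrays' 40th percentile, tumor 1 was at least 37.5-fold higher at 1419609_at and at least 5.22-fold higher at 1419610_at. In tumor 3 the change was 1.80 at 1419609_at (limma's adjusted p = 0.105, and 0.0150 with the array number as a block) and 0.27 at 1419610_at (0.681). In tumor 2 the changes were 0.71 (limma's adjusted p = 0.615) and 0.11 (0.930). Over the 3 tumors together, limma called neither probe set (2.42 ± 1.05, adjusted p = 0.336, and 0.94 ± 0.67, adjusted p = 0.545). Over all 8 arrays, where the error is the spread of duplicates, both passed with the block (0.00178 and 0.0119) and without it (0.0170 and 0.0448).

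The tumors differed in Ccr1 by the F test, which called 2 of the 8 tested members, both of Ccr1 (limma's adjusted p = 0.0135 for 1419609_at and 0.00649 for 1419610_at; 1.26% of all probe sets tested were called). Both passed the signal filter through tumor arrays only, 1419610_at through those of tumor 1 alone, so this count is a description. Tumor 1 exceeded tumor 2 by 4.05 and 2.32 on the log2 scale (limma's adjusted p = 0.0148 and 0.0105; 0.409% of all probe sets were called higher). It exceeded tumor 3 by 2.96 and 2.16 (0.0325 and 0.00729; 0.369% of all). Tumors 3 and 2 differed by 1.09 at 1419609_at, which did not pass (limma's adjusted p = 0.737; 0.423% of all). With a pseudocount of 1, which spreads out the lowest signals, the F test lost both Ccr1 probe sets (0.0712 and 0.180), and with no signal filter it lost 1419609_at (0.0545).

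**Figure D3:**
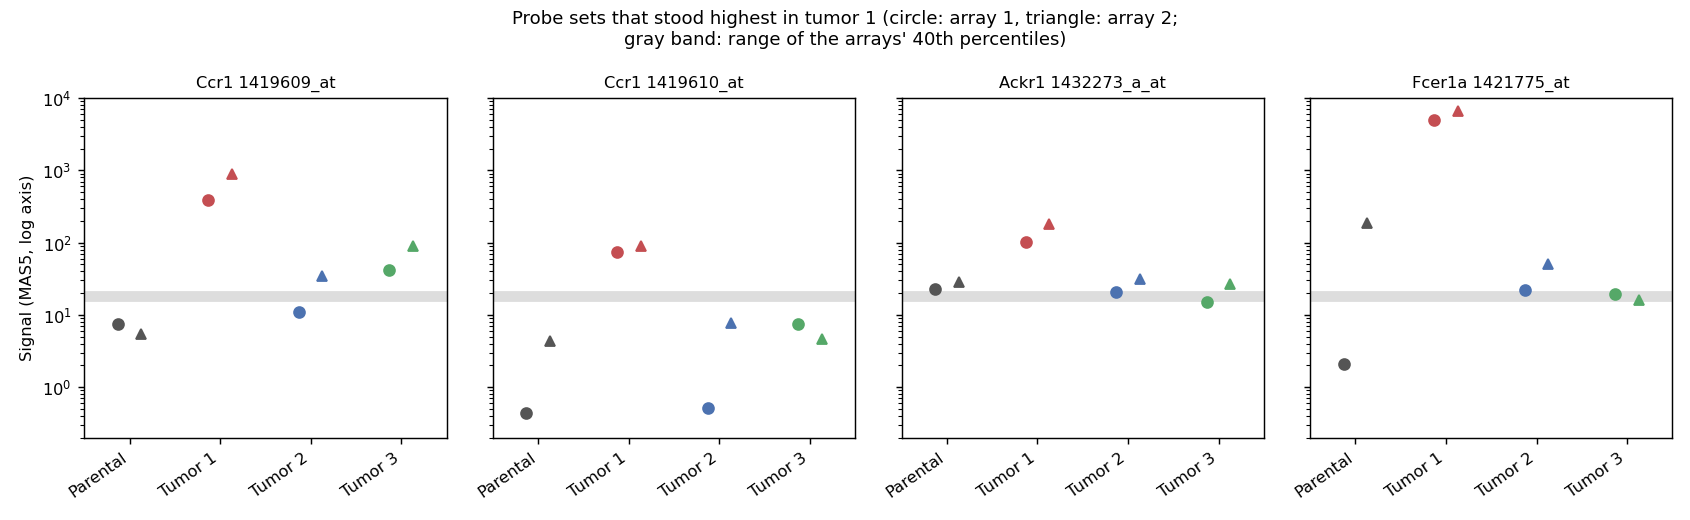
Signal on a log axis of both Ccr1 probe sets, the atypical receptor Ackr1 and Fcer1a on each array, with the gray band for the 40th percentiles of the arrays. The 2 arrays of tumor 1 were the highest at each of these 4 probe sets. The probe sets were picked for this pattern after their values were seen.

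The summed signal of mast cell and basophil markers was also highest in tumor 1, through 3 of the 5 tested probe sets. The summed signal of that list was 1476 and 2900 in the parental arrays, 8650 and 11184 in those of tumor 1, and 3475 to 3656 in tumors 2 and 3. Limma called 0 of its 5 tested probe sets in the comparison over tumors (2 were higher at an unadjusted p under 0.05), their median change was 0.84, and Kit never passed the 40th percentile. The change in tumor 1 exceeded that in tumors 2 and 3 for Fcer1a, Cpa3 and Mcpt8, whereas both probe sets of Gata2 changed least in tumor 1 (0.77 and 0.74). Fcer1a, the alpha chain of the IgE receptor on mast cells and basophils, read 2.10 and 189 in the parental arrays, 5067 and 6654 in those of tumor 1, 22.2 and 50.9 in those of tumor 2, and 19.3 and 16.3 in those of tumor 3. The parental arrays themselves lay far apart there. Within each array number the monocyte and macrophage sum was also highest in tumor 1. It was 636 against 393 and 540 on the first arrays, and 2854 against 1575 and 1804 on the second. Of the 9 tested probe sets of that list, 5 changed most in tumor 1. The part of these cell types in the Ccr1 result was not tested.

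On chromosome 9, Ccr2 and Ccr1 lie close together. In the gene order of GRCm38.p6, Ccr9, Cxcr6, Xcr1, Ccr1, Ccr3 and Ccr2 follow one another with at most 1 other protein-coding gene between neighbours. Ccr3, which sits between Ccr1 and Ccr2, read 0.506 to 9.25 over all arrays and never passed the 40th percentile. The 3 probe sets of Ccr9 read 0.552 to 10.8, the 2 of Cxcr6 read 0.0849 to 15.1, and Xcr1 read 1.06 to 23.01 with a change of -0.16 (limma's adjusted p = 0.802). The rise seen at Ccr2 in all tumors and at Ccr1 in tumor 1 was thus not seen at Ccr9, Cxcr6, Xcr1 or Ccr3.

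**Figure D4:**
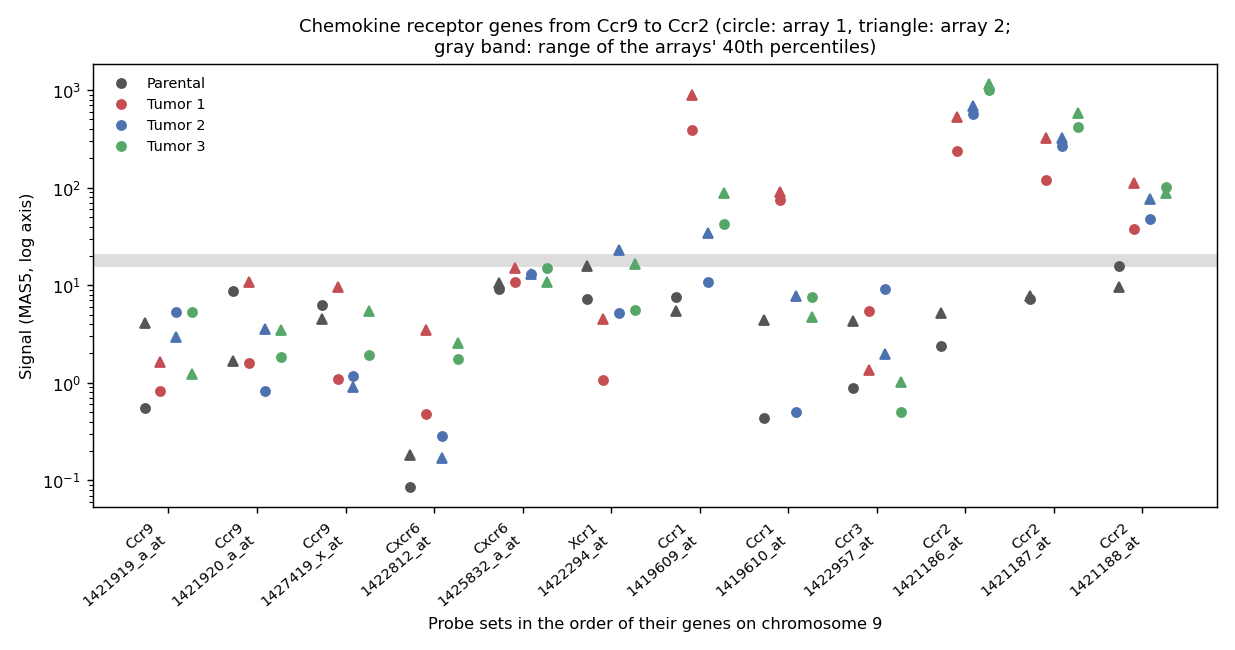
Signal on a log axis of the probe sets of receptor genes from Ccr9 to Ccr2 in their order on chromosome 9, with 1 symbol per array and the gray band for the 40th percentiles. Ccr2 lay above the band in all tumor arrays. Both Ccr1 probe sets did so in tumor 1, and 1419609_at also in tumor 3 and the second array of tumor 2. Ccr9, Cxcr6 and Ccr3 stayed below the band, and 1 tumor 2 array of Xcr1 reached 23.01.

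Cxcr3, on chromosome X, passed the 40th percentile on all 8 arrays at a low signal. It read 32.9 and 27.6 in the parental arrays, 19.1 and 35.1 in those of tumor 1, 28.3 and 23.6 in those of tumor 2, and 33.4 and 51.2 in those of tumor 3. Tumors 1 and 2 overlapped the parental arrays and both arrays of tumor 3 lay above them, and the change was 0.02 ± 0.20 (log2; 95% interval -0.46 to 0.49; limma's adjusted p = 0.978). Cx3cr1 1450020_at read 15.04 and 20.0003 in the parental arrays, 12.5 and 19.2 in those of tumor 1, 17.3 and 26.3 in those of tumor 2, and 22.1 and 10.998 in those of tumor 3, around the 40th percentile. Its change was 0.01 ± 0.17 (interval -0.39 to 0.41; limma's adjusted p = 0.987). The direction of both small changes turned with quantile normalization (-0.09 for Cxcr3, -0.14 for Cx3cr1) and with median centring (-0.09 and -0.10).

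The other Cx3cr1 probe set, 1450019_at, read 2.95 to 15.9 and never passed the 40th percentile. Cxcr5, which guides B cells toward Cxcl13 in follicles, read 5.61 and 12.8 in the parental arrays and 8.05 to 27.1 in tumor arrays, with only the second array of tumor 1 above its percentile. Ccr7, the receptor that leads lymphocytes and mature dendritic cells into lymph nodes, read 0.566 to 1.28 on all arrays. Cxcr2 read 1.56 to 4.09. At these signals Ccr7, Ccr9 and Cxcr2 could not be told from background on these arrays, which does not show that their RNA was absent.

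Of 14 other chemokine receptors, 12 had a probe set, 7 of them never passed the 40th percentile, and limma called 0 of 5 tested probe sets in either direction (1 was higher at an unadjusted p under 0.05; median change 0.06). The one of lowest p was Ccrl2, an atypical receptor that binds chemerin, which read 20.3 and 24.4 in the parental arrays and 25.8 to 105 in tumor arrays. Its change was 0.86 ± 0.19 (limma's adjusted p = 0.124). Ackr1, the atypical receptor of the Duffy blood group, was not called in tumors against parental cells (0.57 ± 0.59, limma's adjusted p = 0.691). It read 22.6 and 28.8 in the parental arrays, 103 and 182 in those of tumor 1, and 14.9 to 31.3 in tumors 2 and 3, and it differed among the tumors by limma's F test (adjusted p = 0.0274).

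Ligands of Ccr2 and Cxcr4 were near the floor, whereas some ligands of Ccr1 were not. The 3 ligands Ccl2, Ccl7 and Ccl12 of Ccr2 read 1.15 to 9.16, 1.56 to 17.5 and 0.564 to 5.37 and never passed the 40th percentile. Cxcl12, the ligand of Cxcr4, read 1.06 to 16.4 over its 2 probe sets. Cxcl9 (1.03 to 2.00457) and Cxcl10 (1.53 to 18.03), ligands of Cxcr3, never passed either. Cx3cl1, the ligand of Cx3cr1, read 0.452 to 16.7 over 3 probe sets, none of them tested.

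Limma called 0 of 13 tested ligand probe sets in either direction (2 were higher at an unadjusted p under 0.05; median change 0.38), and 20 of the 33 ligand genes on the array never passed the 40th percentile. The ligand of lowest p was Ccl9, which binds Ccr1. Its probe set 1417936_at read 328 and 1143 in the parental arrays, 2212 and 5276 in those of tumor 1, 1030.06 and 2553 in those of tumor 2, and 778 and 1770 in those of tumor 3. The second array was above the first in every source. Tumor 1 lay above both parental arrays and tumors 2 and 3 overlapped them, with a change of 1.58 ± 0.60 (limma's adjusted p = 0.285). Ccl6 1417266_at, another ligand of Ccr1, read 97.5 and 415 in the parental arrays, 414.9 and 4552 in those of tumor 1, and 104 to 731 in those of tumors 2 and 3 (change 1.11, limma's adjusted p = 0.569). Ccl3 read 2.52 and 29.7 in the parental arrays, 41.04 and 279 in those of tumor 1, and 1.34 to 35.02 in the others (change 0.61, limma's adjusted p = 0.753). Both had their highest array in tumor 1, the tumor with high Ccr1. Limma's F test did not call a difference among the tumors for Ccl9 1417936_at, Ccl6 1417266_at or Ccl3 (adjusted p = 0.652, 0.665 and 0.315). The first tumor 1 array of Ccl6 did not exceed the second parental array. Ccl5 read 2.10 to 6.52 and was not tested. Ccl25, the ligand of Ccr9, changed by 0.38 (limma's adjusted p = 0.433) and Cxcl13 1448859_at, the ligand of Cxcr5, by 0.06 (0.913).

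Downstream of the receptors, limma called 1 of 54 tested probe sets of 30 signalling genes higher and 0 lower (10 higher and 7 lower at an unadjusted p under 0.05), with a median change of 0.13. The called gene was Rgs10, whose product shortens signalling by inhibitory G proteins. It read 10.5 and 12.0 in the parental arrays, 88.9 and 178 in those of tumor 1, 186 and 278 in those of tumor 2, and 163 and 174 in those of tumor 3. All tumor arrays lay above the parental arrays, and it rose by 2.77 ± 0.24 (limma's adjusted p = 0.00820). Among other chemoattractant receptors, limma called 0 of 7 probe sets (0 at an unadjusted p under 0.05; median change 0.07). The one of lowest p was Ltb4r1, the leukotriene B4 receptor (0.96 ± 0.53, limma's adjusted p = 0.427).

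Markers of the remaining cell types gave the following. T cell markers had 2 probe sets tested, of which Cd3g was called higher (43.1 and 34.9 against 752 to 1821; median change of the list 4.34), and Cd3e, Cd4 and Thy1 never passed the 40th percentile. The pro-B list had 1 of 3 probe sets called higher, Cd79b, with a median of 0.97. Limma called none of the tested probe sets of the natural killer (2, median -0.995), mature B (1, median 0.01), dendritic (2, median 0.08), endothelial and stromal (2, median 0.15) and erythroid lists (1, median 0.57). The natural killer median lay between opposite changes, -3.09 for Gzmb and 1.10 for Nkg7. At an unadjusted p under 0.05, 1 probe set each of the natural killer, endothelial and stromal, and erythroid lists was higher. The part of these cells in the receptor values was not tested.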

How the data were processed

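RNA from 8 samples was hybridised to Affymetrix Mouse Genome arrays. The deposited table holds a signal intensity on a linear scale for each probe set, made with MAS5 per the submitters' processing notes, with settings not given in the sources used here. On each array the trimmed mean was 150.06 (2% left out at each end), so a global scaling had been applied, which makes each value relative to the rest of its array. Gene symbols were those of the platform table, brought up to date through RefSeq gene IDs (20351 probe sets matched). Of the probe sets, 20380 had 1 symbol, 691 several and 1555 none. The 64 control probe sets were not used.

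Members and lists were chosen with earlier results of these data known. Limma 3.58.1 in R 4.3.3 was fitted to log2(signal + 16) over 14897 probe sets, two-sided, with Benjamini-Hochberg adjustment over all of them at 0.05, and was tested on simulated data. The main comparison averaged each tumor's 2 arrays first; single tumors and the F test used all 8 arrays. Arrays with the same number deviated together, with a correlation of 0.434 to 0.594 for each of 6 source pairs, so the numbers in the labels pair the arrays. From each pathway list, the text names the called probe sets (otherwise that of lowest p) and a set of ligands of the members, and from each called Ccr2 probe set the 3 most alike; other genes were chosen after their values were seen. The processing was varied by pseudocount (1 or 64), filter (none or the 60th percentile), quantile normalization, median centring and trended robust prior. It was also varied by 1 probe set a gene, the block, single array numbers and the omission of single arrays or of a whole tumor.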

Additional observations from a re-analysis of the deposited data

Results flagged for a closer look

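Results that differed among the tumors by limma's F test were the following. Ccr1 1419609_at (adjusted p = 0.0135) changed by 4.76, 0.71 and 1.80 in tumors 1, 2 and 3 on the log2 scale, and Ccr1 1419610_at (0.00649) by 2.43, 0.11 and 0.27. Ackr1 (0.0274) changed by 1.88, 0.01 and -0.19, and Fcer1a (0.0147) by 6.58, -0.27 and -0.85, so these probe sets too were highest in tumor 1. The chemokine gene Pf4 (0.0191) was highest in tumor 3, at 0.50, 0.61 and 2.50. The G protein subunit gene Gng2 1418451_at (0.0479) changed by 3.00, 1.51 and 2.23, highest in tumor 1 and lowest in tumor 2. The T cell receptor component Cd3d (0.0210) changed by 4.80, 2.63 and 5.21, highest in tumor 3 and lowest in tumor 2.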

How the results depend on the processing

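No result changed direction past a threshold. With 1 probe set a gene, 5 members were tested, and Ccr2 entered only as 1421186_at, which stayed called. Of members called higher over the tumors (3), limma called 1 with a pseudocount of 64, 1 with 1 probe set a gene, 0 with no filter, 0 within array number 1 and 0 within array number 2 (4 members stayed at an unadjusted p under 0.05 in each of the last 3), and 6 with the array number as a block over all 8 arrays, against 5 without it. Over all probe sets (104), these settings called 45, 66, 22, 5, 12, 1952 and 489. Leaving out 1 sample gave 0 to 3 members and 9 to 94 probe sets. Members called in tumor 3 numbered 5 with the block, which otherwise changed only the calls given with the results. The F test called 1 member with no filter and 0 with a pseudocount of 1. Median centring, which moved the median change by -0.11, called 67 probe sets higher and 44 lower (60.4% higher, against 71.2%). The causes were not tested. Signals near the 40th percentile limit what can be said of Cx3cr1, Cxcr5, Ccr7, Ccr9 and Cxcr2.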
